A study of Glycine max with 24 samples.

Results

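Of 41743 soybean (Glycine max) transcripts in the deposited table, 250 had lower values in leaf slices given microbe-associated molecular patterns (MAMPs) than in mock-treated slices in each of 4 lines. They were chosen by their measured MAMP and control values and are called members here. A transcript became a member where its control level averaged 2 CPM or more over the lines (CPM, the share of a library's estimated counts scaled to a total of 1000000) and the log2 ratio of MAMP to control, with 0.5 CPM added to both, was -0.4 or less in every line. A ratio of -0.4 leaves 75.8% of the control level. The level condition alone was met by 25737 transcripts, so members were 0.971% of these, against 1405 (5.46%) with a ratio of 0.4 or more in every line. The members lay in 250 different loci, and none of these loci has another transcript model in the table.

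The tested leaves came from 4 genotypes. The cross of LD with LDX gave the recombinant inbred lines R-11268 and R-11272, which repeated self-pollination has made close to homozygous. The 8 groups were LD, LDX, R-11268 and R-11272 with MAMP, and the same lines with mock solution (control), with 3 libraries in each. Every group started from plants grown for 3 weeks in days of 16 h light, whose trifoliolate leaves were detached, infiltrated with water under vacuum, pooled over 5 plants per genotype, sliced and floated on water overnight. For the next 30 min the MAMP dishes held flg22 at 1 µM together with 50 µg of chitin from crab shell, in 5 ml, and the control dishes held water with dimethyl sulfoxide, all in the dark. All values thus come from cut, floated slices rather than from intact plants. The replicate number was read as a plant pool whose slices went to both dishes. Library totals ranged from 9780810 estimated counts in LD control replicate 2 to 20827163 in R-11272 MAMP replicate 2.

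Flg22 is a peptide from bacterial flagellin that plants bind with the receptor kinase FLS2, and chitin is a fungal wall polymer bound by receptors with LysM domains. Both start pattern-triggered immunity, in which calcium influx, an oxidative burst and protein kinase cascades are followed within minutes by changes in transcription. Defence genes are turned on, and in Arabidopsis many genes of growth and photosynthesis are turned down. How fast an mRNA can drop is limited by how fast its existing copies are degraded. None of the identifiers in the table (0 matched) occurs in the available soybean gene list, so no member can be given a gene name or a role, and no pathway list could be applied.

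The deposited values have the form of fitted values, not of independent measurements of each library. Within a line, the MAMP to control ratio of a transcript was the same in replicates 1, 2 and 3 once each replicate was centred on its median (SD under 0.001 on the log2 scale for 100% of 38183 transcripts). The scatter of a MAMP effect between pools is therefore absent from the table, and SDs below describe fitted values. Transcripts of 2 CPM or more deviated most from the other pools of the line in LD pool 2, LDX pool 3 and R-11272 pool 1. The median absolute log2 deviations were 0.368, 0.852 and 0.893, and these 3 pools are said below to stand apart. LD pool 2 did so only within LD, since LDX pools 1 and 2 and R-11272 pool 3 deviated by 0.549, 0.388 and 0.544. No pool of R-11268 deviated by more than 0.167. In these whole slices, a lower value from fewer cells of a type and one from less RNA per cell cannot be told apart.

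The decreases were modest, and their median was lowest in R-11272. These ratios chose the members and are given as a description. Over the 250 members the median log2 ratio was -0.70 for LD, -0.67 for LDX, -0.68 for R-11268 and -0.87 for R-11272, which leaves 61.7%, 62.8%, 62.5% and 54.7% of the control level. Over all 25737 transcripts of 2 CPM or more the medians were -0.10, -0.09, -0.07 and -0.02 in the same lines. R-11272 had the lowest ratio of the 4 lines for 109 members (43.6%), against 51 in LDX, 47 in R-11268 and 43 in LD. A decrease of 2-fold or more was seen in 91 members in R-11272, in 48 in LDX and in 44 each in LD and R-11268. Over the 25737 transcripts such decreases were also most frequent in R-11272, at 2.05%. The share was 0.692% in LDX, 0.750% in LD and 0.909% in R-11268, so this excess was not particular to the members. Only 1 member was 2-fold or more lower in all 4 lines, while 141 were so in at least 1. The ratios of a member differed by 0.56 between its highest and lowest line at the median, by under 0.25 in 33 members and by over 1 in 36.

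**Figure D1:**
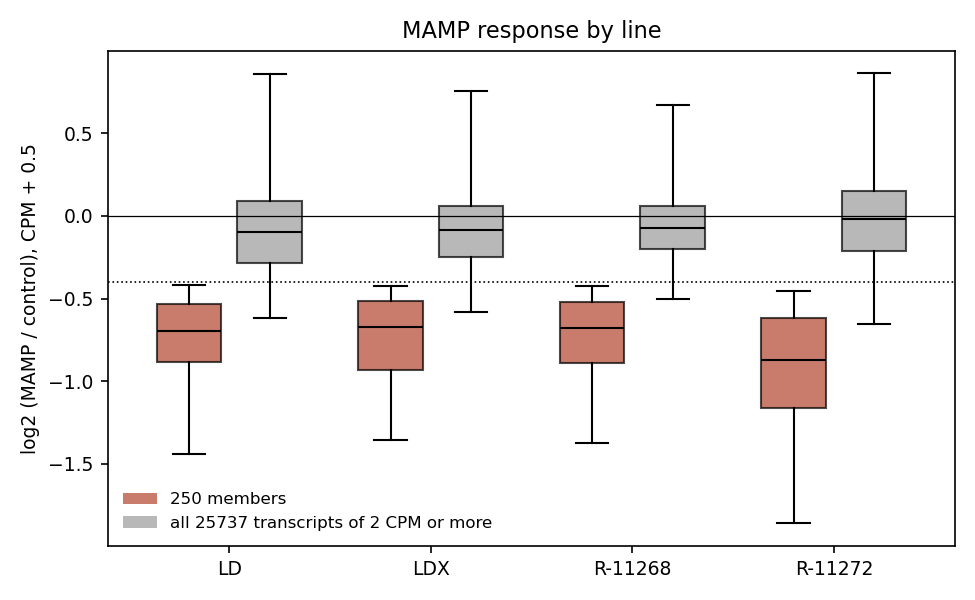
Log2 ratio of MAMP to control (CPM + 0.5) in each line, for the 250 members (red) and all 25737 transcripts of 2 CPM or more (grey). Boxes span the quartiles with the median as a line, whiskers run from the 5th to the 95th percentile, and the dotted line is the threshold of -0.4. The members' median is lowest in R-11272, at -0.87.

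Glyma01g41330.1 had the lowest mean ratio, at -1.70 over the 4 lines. In R-11268 its 3 MAMP libraries held 0.0597, 0.359 and 1.78 CPM, against 1.05, 6.36 and 31.7 CPM in the controls. In LDX the MAMP libraries held 0.163, 0.101 and 3.97 CPM and the controls 0.561, 0.332 and 14.8 CPM. Pools of these lines thus differed more than the treatments did, and the groups overlapped. In LD the MAMP libraries held 3.19, 4.77 and 2.89 CPM, against 5.67, 8.43 and 5.22 CPM in the controls, and in R-11272 11.3, 3.83 and 5.00 CPM with MAMP, against 22.6, 8.48 and 11.3 CPM in the controls. All MAMP values lay below all control values in LD only, and the line ratios spread from -0.75 in LD to -3.45 in R-11268.

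Glyma06g38480.1 came next, with a mean ratio of -1.63, and was the member that was 2-fold or more lower in every line. Its MAMP libraries held 4.34, 3.66 and 2.28 CPM in LD, against 11.3, 9.53 and 6.07 CPM in the controls. In LDX it had 2.53, 1.05 and 4.41 CPM with MAMP, against 6.82, 2.73 and 12.9 CPM in the controls. The groups were apart in LD and overlapped in LDX, where pool 3 was high. In R-11268 it had 1.48, 1.85 and 1.19 CPM with MAMP, against 6.47, 8.14 and 5.24 CPM in the controls. In R-11272 the values were 3.62, 1.03 and 0.716 CPM with MAMP, against 17.7, 5.57 and 3.98 CPM in the controls. Both inbred lines had all MAMP values below all control values, with ratios of -1.83 for R-11268 and -2.07 for R-11272.

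The most abundant member was Glyma11g08730.1, at a mean control level of 680 CPM. In LD it had 320.3, 1091 and 205 CPM with MAMP, against 537, 1822 and 349 CPM in the controls. LDX libraries held 67.6, 153 and 1251 CPM with MAMP, against 115, 250.0 and 2309 CPM in the controls. Pool 2 of LD and pool 3 of LDX were far above the other pools in both treatments. The R-11268 values were closer together, at 197, 203 and 127 CPM with MAMP, against 329, 342 and 214 CPM in the controls. R-11272 had 462, 109 and 49.3 CPM with MAMP, against 1371, 356 and 166 CPM in the controls. Only in R-11268 were the groups apart, and the ratio was lowest in R-11272, at -1.61, with -0.86 in LDX and -0.74 each in LD and R-11268.

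Glyma12g32770.1, the second in abundance at 403 CPM in the controls, was likewise uneven between pools. Its LD libraries held 91.7, 276 and 101 CPM with MAMP, against 210.1, 629 and 236 CPM in the controls. In LDX it had 94.7, 120.1 and 579 CPM with MAMP, against 182, 222 and 1207 CPM in the controls. One pool of each parent again carried the highest value in both treatments. In R-11268 it had 158, 141 and 112 CPM with MAMP, against 221, 199 and 157 CPM in the controls. R-11272 libraries held 402, 105 and 55.2 CPM with MAMP, against 1094, 315 and 170.0 CPM in the controls. The treatments overlapped in all 4 lines, in R-11268 by only a narrow margin, with ratios of -1.20 for LD, -1.02 for LDX, -0.48 for R-11268 and -1.49 for R-11272.

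**Figure D2:**
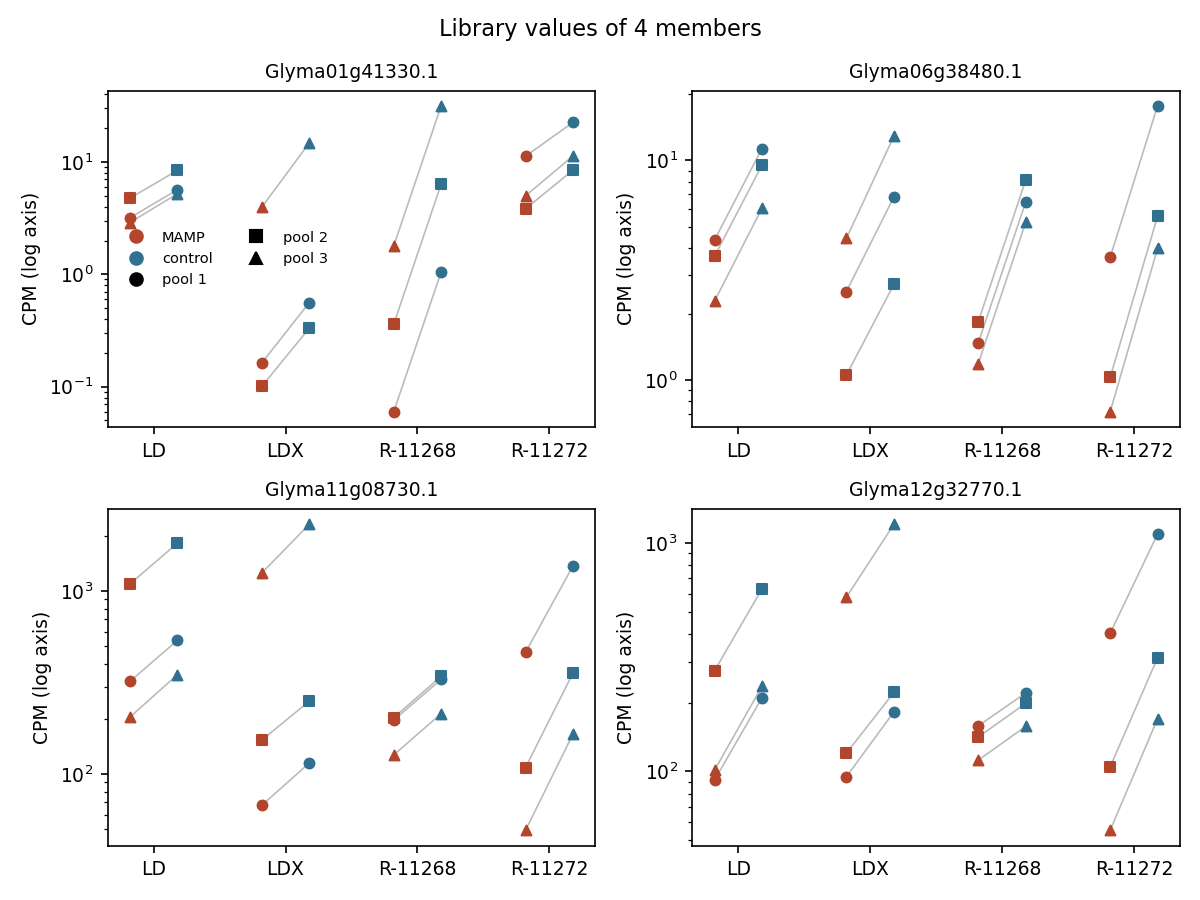
CPM of 4 members in each library on a log axis, with MAMP (red) left of control (blue) in each line and a grey line joining the libraries of 1 plant pool (circle, square and triangle for pools 1, 2 and 3). Every pool's MAMP value is below its own control value. In these fitted values the pools of a line share 1 ratio apart from a library offset, so this is no replication. Pools differ so widely that treatments overlap in at least 3 lines, except for Glyma06g38480.1, where they overlap in LDX only. In Glyma11g08730.1 LDX pool 3 held 1251 CPM with MAMP and 2309 CPM in the control, far above the other LDX pools.

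Around the threshold, Glyma04g08010.1 and Glyma07g38030.1 were just inside, with highest line ratios of -0.4013 in LDX and -0.4013 in LD. Glyma09g02600.1 and Glyma07g31870.1 were just outside, at -0.39997 (R-11272) and -0.3990 (R-11268). Exactly 3 lines had a ratio of -0.4 or less for 912 transcripts of 2 CPM or more, and no line had one for 18417. Another 30 transcripts met the ratio in all lines but had a control level under 2 CPM. At that edge Glyma09g35360.1 was just inside at 2.03 CPM and Glyma10g43520.1 just outside at 1.98 CPM.

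The members' control level had a median of 14.9 CPM and ran from 2.03 to 680 CPM, against a median of 14.6 CPM and a maximum of 14235 CPM over the 25737 transcripts. A level of 100 CPM or more was reached by 26 members (10.4%), against 6.67% of those transcripts. Together the members made up 0.767% of estimated counts with MAMP and 1.25% in the control for LD, 0.674% and 1.13% for LDX, 0.449% and 0.750% for R-11268, and 0.478% and 1.03% for R-11272. The median group of 3 libraries held 515 estimated counts of a member, and the counting error of a line ratio was 0.09 on the log2 scale at the median. That error covers counting only and takes the fitted group totals as counts.

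A test of the mean MAMP response over the 4 lines used the same contrast as the choice of members, so it adds only a description. With edgeR's quasi-likelihood test on all 24 libraries, 76 of the 250 members fell at an adjusted p under 0.05, and none rose. Over all 33214 transcripts tested, 9.75% were called, 7.75% higher and 2.0% lower. Among those of 2 CPM or more it was 8.88%, with 7.22% higher and 1.67% lower. The test sets the response against the spread between pools, so a narrower spread among called members is built in. Their control levels spanned 1.51 on the log2 scale over the 12 pools at the median, against 2.91 for the 174 not called, while their median mean ratio was -0.73, against -0.79. Without the 3 pools that stood apart, 170 members were called lower, where 5.86% of all transcripts tested were, and limma with the 4 lines as replicates called 44, where 0.367% were. With the plant pool as a replicate block all 250 were called lower, as were 31.8% of all transcripts tested, since these values carry no replicate error of a MAMP effect, and that count is void.

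The 3 MAMP libraries all lay below the 3 control libraries in R-11268 for 148 members, where 17.1% of transcripts of 2 CPM or more did so. The count was 86 in R-11272 (5.97% of those transcripts), 65 in LD (11.6%) and 51 in LDX (6.18%). In all 4 lines at once it was 20 members, against 0.61% of those transcripts. Members were chosen for lower MAMP means in these same libraries, so counts above these shares follow from the choice. R-11268 had the highest share with separated treatments both among members (59.2%) and over those transcripts (17.1%), although its ratios were not the lowest. In R-11272 these shares were 34.4% and 5.97%. R-11268 was also the line with the least scatter between its pools, and a link with that was not tested.

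Pools and lines were compared next. The choice of members did not compare these, but it did use the same control values as denominators and for the level condition, so what follows is not independent of it. The members were more uneven between plant pools than transcripts of 2 CPM or more. Over the 12 control libraries a member's highest level exceeded its lowest by 2.41 on the log2 scale at the median, or 5.31-fold, against 1.60, or 3.04-fold, over the 25737 transcripts. In 158 members (63.2%) the span was 4-fold or more, against 33.2% of those transcripts. The wider spread was visible within LD, LDX and R-11268 too, but little within R-11272. The median SD of log2 control values over 3 pools was 0.58 for LD, 0.92 for LDX, 0.30 for R-11268 and 0.59 for R-11272, against 0.27, 0.55, 0.16 and 0.55 for those transcripts. In R-11272, 136 members (54.4%) exceeded the median SD of those transcripts, against 84.0% in LD, 71.6% in LDX and 83.6% in R-11268.

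The 3 pools that stood apart held the highest control level of 161 members (64.4%), against 31.6% of the 25737 transcripts. LD pool 2 was highest for 69 members, and LDX pool 3 and R-11272 pool 1 for 46 each. Relative to the other pools of the line, members were higher at the median by 0.69 on the log2 scale in LD pool 2, by 0.83 in LDX pool 3 and by 0.33 in R-11272 pool 1, whereas transcripts of 2 CPM or more were lower in these pools, at -0.13, -0.45 and -0.58. In all 3 of these pools at once, 127 members (50.8%) were higher and 33 (13.2%) lower, against 19.9% and 51.6% of those transcripts. LDX pool 1, LD pool 3 and R-11272 pool 3 were the opposite case, with member medians of -0.86, -0.60 and -0.50, against 0.25, 0.07 and 0.32 over those transcripts. Depth differed as well: LD control replicate 2 had the fewest counts of all libraries, and its part in these differences was not tested.

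Part of that pattern could enter through the choice of members, since a pool in which the whole library leaned to lower ratios also lowers the line mean of transcripts that are high there. The median log2 ratio over the 25737 transcripts was -0.18 in LDX pool 3, against -0.08 and -0.02 in LDX pools 1 and 2. In R-11272 pool 1 it was 0.10, against -0.04 and -0.07 in pools 2 and 3. In LD pool 2 it was -0.08, against -0.09 and -0.11 in pools 1 and 3. How far the choice of members made the pattern was not tested. The choice was also repeated without the 3 pools. This is no independent check, since the ratio of a line is shared by all its pools in these fitted values and so still rests on the pools left out. It gave 209 transcripts, of which 200 were among the 250 (80.0% of the 250 and 95.7% of the 209). Of the 209, 145 were higher in LD pool 2 than in the other LD pools (69.4%), 138 in LDX pool 3 (66.0%) and 106 in R-11272 pool 1 (50.7%), against 37.3%, 32.4% and 26.8% of 25708 transcripts of 2 CPM or more. Their median deviations were 0.56, 0.42 and 0.01, against -0.14, -0.48 and -0.61. All 3 pools were higher for 85 of the 209 (40.7%), against 18.7%. In R-11272 pool 1 the median of the 209 was level with the other pools, while the median transcript was lower.

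**Figure D3:**
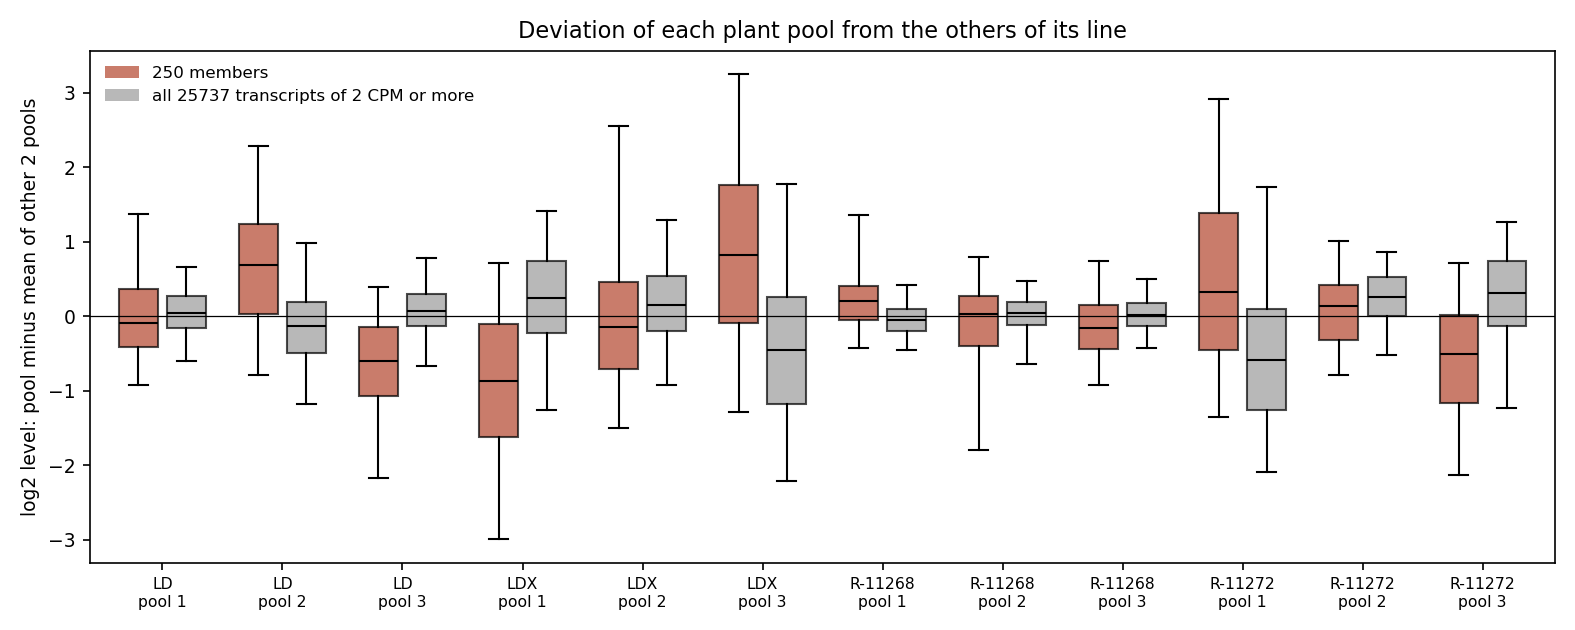
Log2 level of each plant pool (mean of its MAMP and control library) minus the mean of the other 2 pools of its line, for the 250 members (red) and all 25737 transcripts of 2 CPM or more (grey), with medians, quartiles and whiskers at the 5th and 95th percentiles. The members lie above 0 at the median in LD pool 2 (0.69), LDX pool 3 (0.83) and R-11272 pool 1 (0.33), where the median transcript lies below 0.

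The order of the lines in control level is given next as a description. R-11268 had the lowest of the 4 line means for 134 members (53.6%), against 19.5% of the 25737 transcripts, and LD the highest for 114 (45.6%), against 19.1%. The median control level of a member was 18.8 CPM for LD, 15.2 CPM for LDX, 11.0 CPM for R-11268 and 13.5 CPM for R-11272. Relative to the mean of the 4 lines, the median was 0.26 for LD, 0.11 for LDX, -0.31 for R-11268 and -0.09 for R-11272 on the log2 scale. R-11268 has none of the 3 pools that stood apart. Without them its median was -0.09 and it was lowest for 90 members (36.0%, against 19.1%), while LDX was lowest for 99 (39.6%, against 25.4%). LD kept its place, with a median of 0.21 and the highest level for 118 members (47.2%, against 18.7%). R-11268 was below LD in 208 of 250 members with all pools, at a median difference of -0.61, and in 196 without the 3 pools, at -0.30. Over the 25737 transcripts the median of R-11268 minus LD was 0.09 with all pools and 0.04 without the 3. R-11268 minus LDX, by contrast, moved to 0.00 at the members' median without these pools, against -0.44 with all of them. Over the 25737 transcripts it was -0.01 without these pools and 0.08 with all of them.

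**Figure D4:**
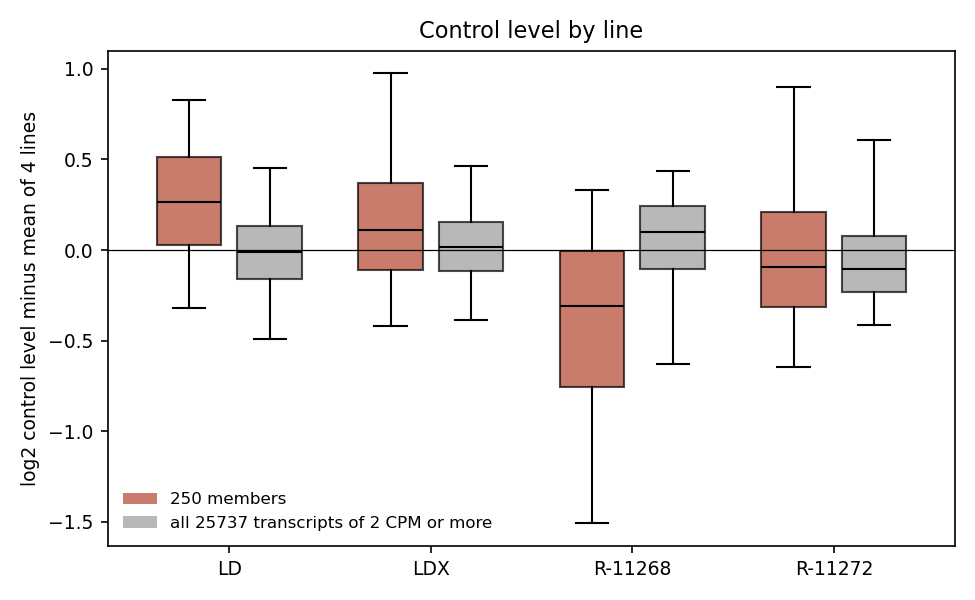
Log2 control level (CPM + 0.5) in each line minus the mean of the 4 lines, for the 250 members (red) and all 25737 transcripts of 2 CPM or more (grey), with medians, quartiles and whiskers at the 5th and 95th percentiles. The members' median is highest in LD (0.26) and lowest in R-11268 (-0.31).

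Few of these line differences could be resolved against the spread between pools. Line means of the 12 control libraries were compared with edgeR's quasi-likelihood test, fitted on 32172 transcripts with 8 residual degrees of freedom. The control values are fitted values as well, so p-values and SEs below describe the spread of fitted pool levels. An F test over the 4 lines called 2 members, or 0.800% of 250, where 3.83% of all transcripts tested and 2.11% of those of 2 CPM or more were called. At an unadjusted p under 0.05 there were 27 members and 5185 transcripts in all. LD minus LDX called 4 members (1.60%), 2 higher and 2 lower in LD, against 3.12% of all transcripts and 2.01% of those of 2 CPM or more, with 1.5% and 1.03% higher, and 1.62% and 0.979% lower. Members were thus called no more often than other transcripts. A further 32 members differed by 2-fold or more between the parents without a call, and the median SE of a member's difference was 0.63 on the log2 scale, so differences of that size were mostly not detectable here. On CPM line means, 29 members (11.6%) differed by 2-fold or more between LD and LDX, against 5.43% of transcripts of 2 CPM or more.

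The counts were small and depended on single libraries. In the F test the count was 0 without LD control replicate 1, where 2.33% of all transcripts tested were called. It was 3 without LDX control replicate 1 (4.16% of all), 2 without LDX control replicate 3 (4.26%) and 1 without any other control library (2.67% to 4.2%). For LD minus LDX it was 1 without LD control replicate 1 (1.64% of all transcripts), LD control replicate 2 (2.07%) or LDX control replicate 2 (2.18%). It was 2 without LD control replicate 3 (2.16%), R-11268 control replicate 1 (2.54%) or R-11272 control replicate 2 (2.60%), and 7 without LDX control replicate 3 (3.40%). Without the 3 pools that stood apart, LD minus LDX called 15 members (6.0%, against 8.27% of all transcripts tested), of which 11 were higher in LD, and the F test called 9 (3.6%, against 8.48%).

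Glyma01g03500.1 was the clearest member to differ between the parents. Its control libraries held 54.9, 52.0 and 48.1 CPM in LD, against 26.9, 25.6 and 19.9 CPM in LDX. The groups did not overlap, and LD was higher by 1.1 ± 0.18 on the log2 scale (SE; edgeR adjusted p = 0.00778). R-11268 controls held 44.2, 31.3 and 32.6 CPM and R-11272 controls 16.4, 28.5 and 26.3 CPM, so R-11268 lay between the parents and R-11272 near LDX. The F test over the 4 lines called it too (edgeR adjusted p = 0.0143), and 20 of 21 alternatives kept the parental call.

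Glyma20g38090.1 was the other member that was higher in LD, with 12.3, 15.6 and 13.2 CPM in LD controls, against 6.90, 5.83 and 6.55 CPM in those of LDX. The difference was 1.08 ± 0.23 on the log2 scale (SE; edgeR adjusted p = 0.0347), and 12 of 21 alternatives kept the call. All 3 LD values were above the LDX values. Controls of R-11268 held 11.0, 11.9 and 9.43 CPM and in R-11272 6.82, 9.06 and 6.87 CPM, so that R-11268 lay between the parents and R-11272 at or just above LDX.

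The members that were lower in LD carry neighbouring locus numbers on chromosome 10. Glyma10g30950.1 held 4.06, 3.55 and 4.27 CPM in LD controls, against 7.03, 8.27 and 7.60 CPM in those of LDX, at -0.97 ± 0.19 on the log2 scale (SE; edgeR adjusted p = 0.0189, kept in 15 of 21 alternatives). Glyma10g30940.1 held 23.8, 20.0 and 24.4 CPM in LD, against 39.6, 42.7 and 45.5 CPM in LDX, at -0.94 ± 0.22 (SE; edgeR adjusted p = 0.0437, kept in 8 of 21). The parents did not overlap in either. With MAMP both were also lower in LD, at 2.05, 1.80 and 2.12 CPM, against 3.22, 3.94 and 3.20 CPM in LDX for Glyma10g30950.1 and 15.7, 13.3 and 15.9 CPM, against 20.5, 23.0 and 21.7 CPM for Glyma10g30940.1, though these libraries share the pools of the controls. Whether reads could be shared between these neighbours was not tested, so these 2 calls may not be separate.

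Between the inbred lines, R-11268 minus R-11272, edgeR called 0 of 250 members, where 1.0% of all transcripts and 0.497% of those of 2 CPM or more were called. At an unadjusted p under 0.05 there were 26 members (10.4%), against 13.5% of all transcripts tested. The order was the other way with DESeq2, at 56 members (22.4%) against 15.4%, and with the compared lines alone, at 44 members (17.7%) against 13.4%. After adjustment DESeq2 called 2 members (0.800%), both lower in R-11268, where it called 1.77% of all transcripts and 0.979% lower; edgeR called 0.532% lower. The fitted difference was negative for 190 of the 250, with a median of -0.50 on the log2 scale, against -0.02 over all transcripts tested, and the members' median was -0.13 without R-11272 control replicate 1, 1 of the 3 pools that stood apart. On CPM line means the median difference was -0.18 for the members, of which 155 were lower and 95 higher in R-11268, against 0.20 over transcripts of 2 CPM or more. Glyma20g39200.1 had the lowest adjusted p. Its controls held 3.50, 3.03 and 2.40 CPM in R-11268, against 34.0, 11.2 and 5.79 CPM in R-11272, a difference of -3.00 ± 0.86 (SE; edgeR adjusted p = 0.205). All R-11268 values were lower, but pool 1 of R-11272 alone held most of the R-11272 total, and without that control library the difference was -1.54. DESeq2 called this member (adjusted p = 0.0132), and its adjusted p over the alternatives ran up to 0.681. Glyma01g02510.1 followed, with 0.630, 0.843 and 1.07 CPM in R-11268, against 5.68, 2.68 and 2.04 CPM in R-11272, at -2.42 ± 0.74 (SE; edgeR adjusted p = 0.241). Without R-11272 control replicate 1 this difference was -1.49. It was called by DESeq2 (adjusted p = 0.0493) and by edgeR without the 3 pools that stood apart (adjusted p = 0.0467, at -1.47), and its adjusted p over the alternatives ran up to 0.736.

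In the other direction Glyma04g09710.1 had 62.7, 50.9 and 71.7 CPM in R-11268 controls, against 14.9, 44.1 and 37.9 CPM in those of R-11272, at 0.79 ± 0.26 (SE; edgeR adjusted p = 0.279). Glyma04g35880.1 had 5.64, 6.36 and 7.33 CPM in R-11268, against 0.897, 3.30 and 3.33 CPM in R-11272, at 1.22 ± 0.47 (SE; edgeR adjusted p = 0.349). Neither overlapped between the lines, and in both the R-11272 pool 1 value was the lowest. These 2 members were thus low in a pool where most others were high.

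The positions given by the identifiers were uneven. Chromosome 4 held 23 members among 1227 transcripts of 2 CPM or more (1.87%) and chromosome 1 held 18 of 1094 (1.65%). Chromosome 5 held 4 of 1207 (0.331%) and chromosome 13 held 9 of 1789 (0.503%), against 0.971% over all. With transcripts of 2 CPM or more ordered by locus number, 16 pairs of members were next to each other, and 30 members took part in them. Of the 500 positions beside a member, 32 were members (6.40%). The remaining 468 flanking transcripts, from which members are left out, had a median mean ratio of -0.09, against -0.08 over all 25737. Chromosome 4 had 4 of the 16 pairs and chromosome 9 had 3, and 9 pairs had consecutive locus numbers, Glyma10g30940.1 and Glyma10g30950.1 among them. Neighbouring copies of 1 gene could share reads, and the sources used here do not say how such reads were counted.

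**Figure D5:**
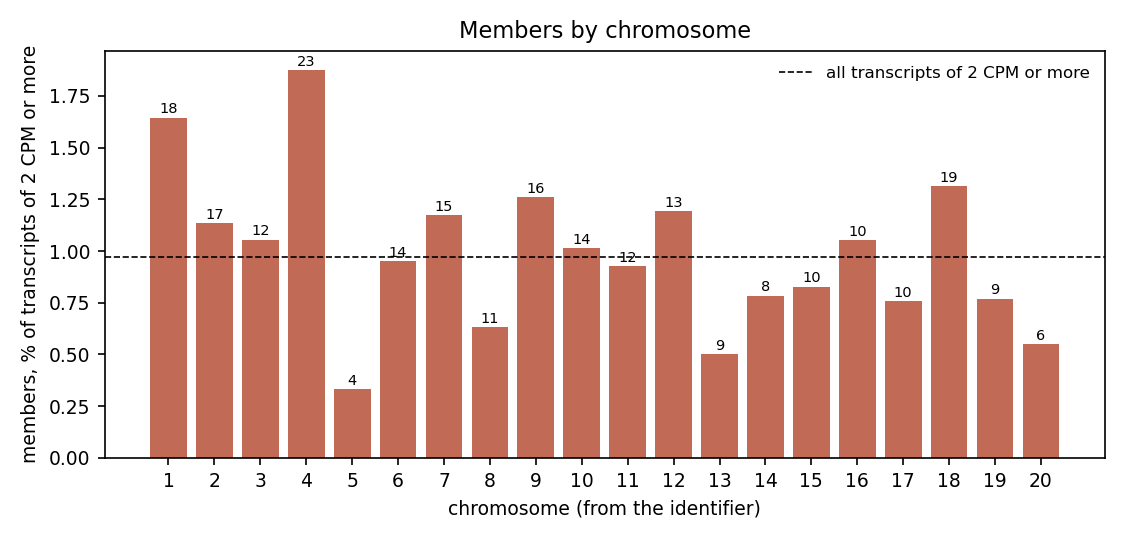
Members as a percentage of the transcripts of 2 CPM or more on each chromosome, with the number of members above each bar and the share over all transcripts (0.971%) as a dashed line. Chromosome 4 is highest at 1.87% and chromosome 5 lowest at 0.331%.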

How the data were processed

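The deposited table gives estimated counts per transcript in 24 libraries. The submitters' processing notes list Bowtie 0.12.7, TopHat 1.4.1 and Cufflinks 1.1.0. The sources used here do not give the genome build, how the authors derived these estimated counts, or how they treated reads matching several genes. Columns were matched to samples by line and replicate number, taking C for control and P, whose meaning the labels leave out, for MAMP. Replicate numbers were taken to pair MAMP and control libraries. Their deviations correlated at 0.994 or more, but the fitted form of the table fixes this, so it cannot test the pairing.

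CPM was the value divided by the column total, times 1000000. For tests, values were rounded to whole numbers, filtered with filterByExpr (minimum count 10), scaled with TMM and fitted in R 4.3.3 with edgeR 4.0.16, with Benjamini-Hochberg adjustment over all transcripts tested and calls at 0.05. Line differences used the 12 control libraries, because the MAMP library of a pool nearly repeats its control library and would add false degrees of freedom. The scripts were also run on simulated counts drawn independently for each library. The deposited values do not have that form, so the run says nothing about error rates here. DESeq2 1.42.0, limma 3.58.1, other scalings and filters, a replicate block and left-out libraries were alternatives. Named members were those with the lowest mean ratio, the highest control level, the lowest adjusted p between lines in each direction, and those beside the threshold, 2 of each since identifiers carry no names. Members, lists and tests were chosen with earlier results of these data known. No label says that replicates came from separate plantings, so p-values measure the spread between these pools. That spread is of fitted values, in which a pool's control value is tied to its MAMP value. The p-values and SEs of line differences carry this limit too.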

Additional observations from a re-analysis of the deposited data

How the results depend on the processing

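The number of transcripts that met the rule was 142 with TMM library sizes (139 of them among the 250), 152 with a pseudocount of 2 CPM, 547 at a threshold of -0.3 and 112 at -0.5. Other levels and the smaller pseudocount gave 198 to 309, and leaving out 1 pool 208 to 260. TMM moved the median ratio of transcripts of 2 CPM or more by less than 0.1 in each line, to 0.00 in LDX, against -0.09 with column totals, and R-11272 kept the lowest median of the members, at -0.91. The members called lower in the mean MAMP response numbered 170 without the 3 pools, 44 with limma, 250 with the replicate block and 66 to 100 without 1 library, where 5.86%, 0.367%, 31.8% and 1.54% to 2.62% of all transcripts were called lower. For the F test over lines the count of 2 members became 7 with all 24 libraries, 1 on pool sums, 9 without the 3 pools, 13 with DESeq2 and 0 to 3 without 1 library. The share of all transcripts tested, 3.83%, became 8.0% with all 24 libraries, 4.95% on pool sums, 8.48% without the 3 pools, 7.61% with DESeq2 and 2.33% to 4.26% without 1 library. For LD minus LDX the count of 4 became 8 with all 24 libraries, 0 on the compared lines alone, 15 without the 3 pools, 9 with DESeq2 and 1 to 7 without 1 library. The share over all transcripts, 3.12%, became 5.24%, 1.23%, 8.27%, 4.60% and 1.64% to 4.16% in the same order. For R-11268 minus R-11272 the count of 0 became 1 without the 3 pools and 2 with DESeq2, where 1.79% and 1.77% of all transcripts were called, against 1.0%. That count stayed at 0 without 1 library, where 0.459% to 1.24% of all transcripts were called. The cause of these shifts was not tested. Across lines the replicate numbers did not pair the control libraries, whose same-numbered deviations correlated from -0.906 to 0.695; with a replicate block the F test called 0 members, LD minus LDX 1 and R-11268 minus R-11272 0, where 2.28%, 1.92% and 0.606% of all transcripts were called. No alternative reversed a named difference. Depth limits members near 2 CPM most, and the table holds no replicate error of a MAMP effect.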
